A study of Mus musculus with 18 samples.

Results

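Epithelial cells are held together by adherens junctions, built on the cadherin Cdh1, by tight junctions of claudins and Ocln, and by desmosomes that anchor keratin filaments. Polarity proteins and vesicle traffic keep the apical and basolateral membranes apart, and factors such as Grhl2, Ovol2 and Esrp1 maintain the epithelial state. Reprogramming of mesenchymal cells to induced pluripotent stem cells (iPSC) passes through a mesenchymal-to-epithelial transition, and pluripotent cells themselves carry Cdh1 and Epcam. The genes followed here are 38 listed epithelial genes, out of 17903 genes with a single-gene probe set on the array. They were chosen by name, with earlier results of these data known. A probe set was found for 37 of them; Jup, a plaque protein of junctions, was not analysed here. Where a gene had several probe sets, the set with the highest mean over all 18 arrays stood for it, which applied to 13 members.

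The study followed mouse cells with and without Tcf3 through reprogramming, with 1 array per sample. Tcf3, now named Tcf7l1, is a transcription factor of the Wnt pathway that mostly represses its targets. Reprogramming used OCK (Oct4, c-Myc and Klf4, without Sox2) or OSK (Oct4, Sox2 and Klf4). OCK cultures were sampled as Tcf3 wt and as Tcf3 ko on days 11, 15, 19, 22 and 26 (1 array each time). The established lines were 1 OSK Tcf3 wt iPSC line, 2 OSK Tcf3 ko iPSC clones and 2 OCK Tcf3 ko iPSC clones, so no OCK wt iPSC line was analysed here. A single partially reprogrammed OCK clone, Tcf3 wt by its label, gave 3 arrays on day 2 after siRNA treatment: 1 with a control siRNA and 1 each with the Tcf3 siRNAs A and B. All samples carried Oct4 and Klf4 as factors. The sources used here do not give the starting cell type, the ko allele or whether the days of a genotype came from the same culture. No label names separate cultures for the replicates either. Among the clones a p-value here measures spread between 2 numbered clones or between the Tcf3 siRNAs A and B. In the cultures it measures the spread of single arrays about the fit. Whether separate experiments stand behind these arrays is not given.

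Values are the deposited log2 RMA signal, on which 1 unit is a 2-fold difference; every array had the same lowest value, 5.64, and a value there is only an upper limit on the level. On this scale array medians lay between 5.85 and 5.94, and 28 of the 37 members were above the floor on all 18 arrays. The targeted gene, Tcf7l1, read 9.06 to 9.90 in wt and 8.10 to 9.48 in ko cultures and was lower in ko on each of the 5 days; it read 10.68 in the OSK wt line against 9.37 to 9.56 in the 4 ko clones. Control siRNA left it at 9.93, and the Tcf3 siRNAs at 8.80 and 8.77. The sources used here do not say where its probes lie relative to the deleted part. A list of 8 pluripotency markers (Nanog, Esrrb, Zfp42 and others) summed to linear signals of 53071 to 59807 in the iPSC lines, 2752 to 3468 in the partial clone, with Zfp42 at the floor, and 514 to 10686 in the cultures. Differences were tested with limma over all genes above the floor somewhere in the arrays compared, and a gene passed at a Benjamini-Hochberg adjusted p under 0.05. A fold is 2 to the power of the log2 difference.

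Promoter sequences are shown to compare the E-boxes of the members. The E-box CAGGTG, searched on both strands, is a sequence bound by the Snai and Zeb repressors of epithelial genes. RefSeq promoter sequences (build GRCm38.p6, from 250 bases before to 50 bases after the start) were found for 22 of the 37 members, 27 promoters in all. Cdh1, Grhl2 and Esrp1 are among the members without one. The E-box letters stood in the promoters of 19 of these 22 members, and 22.6% of the 27025 genes with a promoter entry held them. By promoter the share was 23 of 27, against 20.2% of 32851. Cgn, Ovol2 and Spint1 had none in this window, Ap1m2, Crb3 and Lsr had 4 each, and Spint2 had 3. AACCGGTT, a sequence bound by grainyhead factors, and ATCAAAG, a sequence bound by Tcf/Lef factors, were both searched on both strands. They stood in 0 of the 22 members and in 0.2% and 4.3% of all genes with a promoter entry. At such shares a count of 0 in 22 says little. No match thus overlapped another of these motifs in a member. A match describes letters only, not binding or regulation. The sequences with E-boxes in capitals are those of Epcam and Cldn7, which differed most between the partial clone and iPSC, Cldn4, and the 3 members Ap1m2, Crb3 and Spint2 with repeated E-boxes close to the start. They lie at chr17:87635729-87636028 (Epcam, plus strand), chr11:69965171-69965470 (Cldn7, plus strand, the downstream of its 2 promoters), chr5:134946885-134947184 (Cldn4, minus strand), chr9:21312284-21312583 (Ap1m2, minus strand), chr17:57061951-57062250 (Crb3, plus strand) and chr7:29281928-29282227 (Spint2, minus strand).
Epcam: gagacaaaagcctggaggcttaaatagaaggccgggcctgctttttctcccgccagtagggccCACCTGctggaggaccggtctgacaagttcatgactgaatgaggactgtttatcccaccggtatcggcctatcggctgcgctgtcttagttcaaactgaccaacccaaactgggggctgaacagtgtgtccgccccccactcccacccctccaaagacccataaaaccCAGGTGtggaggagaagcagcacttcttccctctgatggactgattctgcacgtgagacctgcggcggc
Cldn7: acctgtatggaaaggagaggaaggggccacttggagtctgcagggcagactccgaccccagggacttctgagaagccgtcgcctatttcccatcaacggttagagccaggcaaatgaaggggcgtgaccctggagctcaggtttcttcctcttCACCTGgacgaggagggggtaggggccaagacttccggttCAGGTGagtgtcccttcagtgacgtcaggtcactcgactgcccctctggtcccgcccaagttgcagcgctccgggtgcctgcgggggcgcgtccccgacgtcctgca
Cldn4: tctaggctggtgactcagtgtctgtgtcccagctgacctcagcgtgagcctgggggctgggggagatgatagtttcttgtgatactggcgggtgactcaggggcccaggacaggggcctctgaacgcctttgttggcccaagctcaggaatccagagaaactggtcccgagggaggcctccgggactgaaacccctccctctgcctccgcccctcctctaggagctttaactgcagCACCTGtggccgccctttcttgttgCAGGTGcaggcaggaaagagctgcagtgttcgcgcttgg
Ap1m2: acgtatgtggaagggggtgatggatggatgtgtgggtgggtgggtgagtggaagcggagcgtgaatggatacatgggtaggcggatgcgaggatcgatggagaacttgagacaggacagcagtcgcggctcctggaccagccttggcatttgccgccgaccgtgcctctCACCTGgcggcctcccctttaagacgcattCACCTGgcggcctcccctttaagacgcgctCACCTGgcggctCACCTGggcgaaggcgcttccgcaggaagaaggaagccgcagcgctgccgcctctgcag
Crb3: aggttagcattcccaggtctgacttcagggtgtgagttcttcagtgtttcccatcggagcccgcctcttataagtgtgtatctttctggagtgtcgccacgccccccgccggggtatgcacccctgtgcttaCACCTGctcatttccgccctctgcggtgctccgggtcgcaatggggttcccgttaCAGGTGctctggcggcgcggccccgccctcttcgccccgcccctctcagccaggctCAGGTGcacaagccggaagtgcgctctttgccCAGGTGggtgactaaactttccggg
Spint2: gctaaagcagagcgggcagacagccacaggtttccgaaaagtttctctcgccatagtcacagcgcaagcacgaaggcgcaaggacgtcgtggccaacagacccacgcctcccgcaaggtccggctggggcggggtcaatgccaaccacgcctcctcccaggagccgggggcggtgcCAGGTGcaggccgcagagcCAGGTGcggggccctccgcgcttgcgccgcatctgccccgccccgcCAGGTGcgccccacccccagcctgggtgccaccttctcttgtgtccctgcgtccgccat
The E-boxes of Epcam begin at bases -187 and -19 relative to the start, and those of Cldn4 at -14 and 11. Ap1m2 holds its copies at -81, -51, -21 and -9, and Spint2 at -74, -55 and -9.

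**Figure D1:**
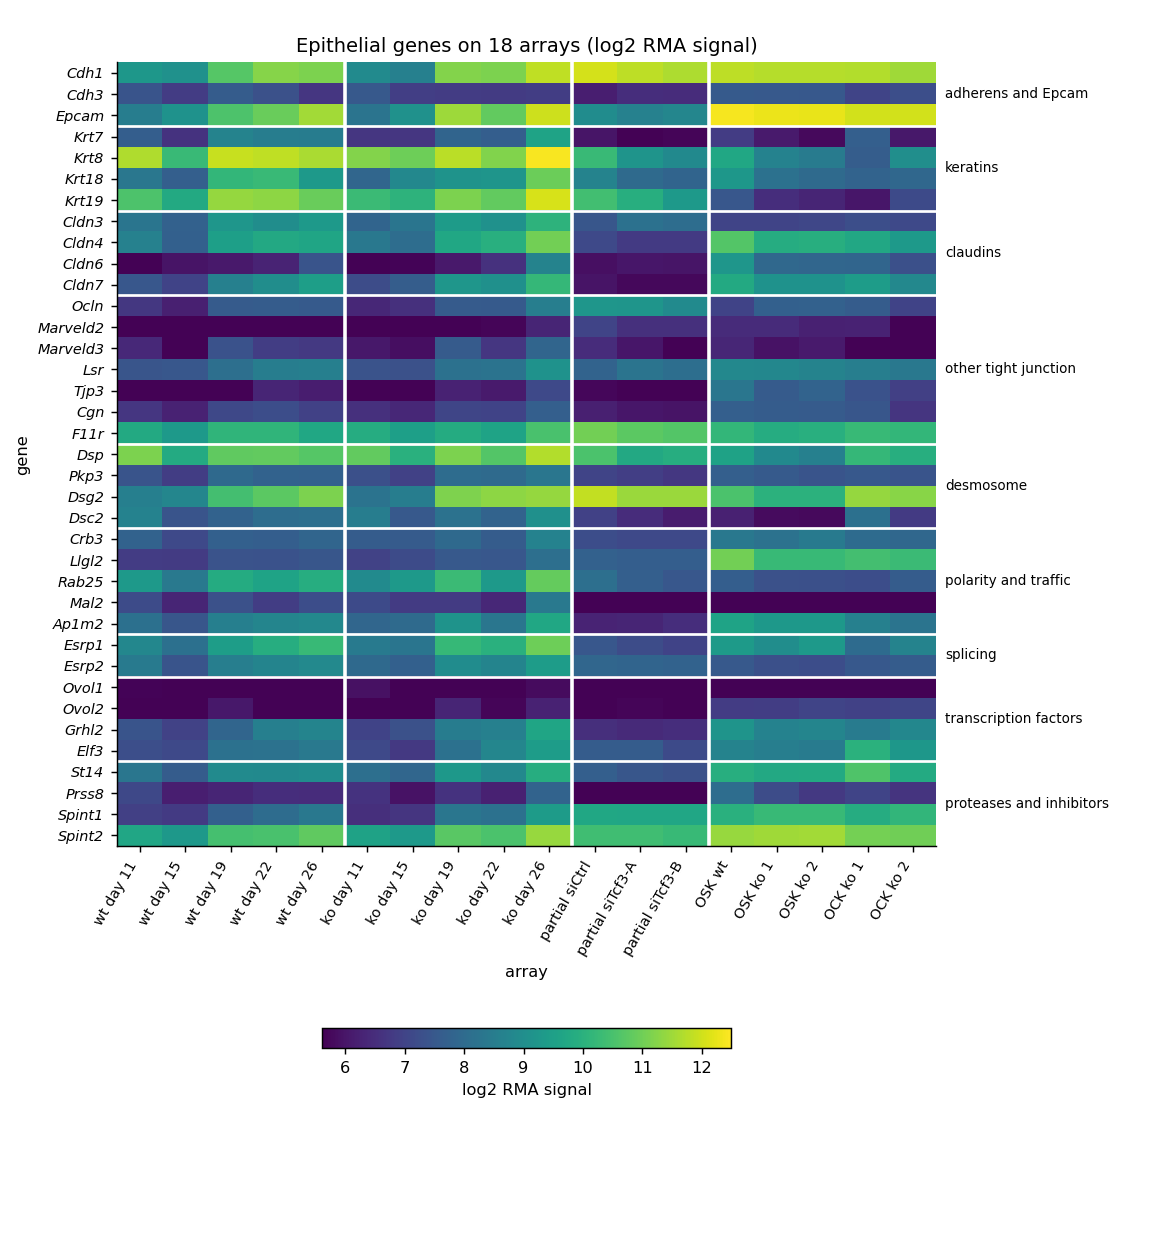
Log2 RMA signal of the 37 epithelial genes (rows, grouped by role) on the 18 arrays (columns: wt cultures, ko cultures, partial clone, iPSC lines). The ko day 26 array is the highest culture array for 34 of the 37 genes, and the partial clone is at or near the floor for Cldn7, Tjp3 and Prss8 while Cdh1 reads 11.66 to 12.05 there.

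How the epithelial genes change in the cultures was addressed first. Most of them rose between day 15 and day 19, and in none of the other 3 intervals did a member pass the test. Between days 15 and 19, 23 of the 35 members tested rose and 0 fell, where 27.2% of all genes tested passed and 13.8% passed as higher. All 35 estimates were positive, with a median of 1.20 in log2 (all genes, -0.0207). By the probe sets used, the rise was largest for the desmosomal cadherin Dsg2 (4.47-fold), Cdh1 (4.32-fold) and Epcam (3.75-fold). Other Dsg2 probe sets rose less, as given below. For 29 of the 37 members this was the largest of the 4 rises between neighbouring days, as it was for 29.9% of all genes. The values are means of the wt and ko arrays of each day, and with 4 residual degrees of freedom 15 members were called when day 11 was left out and 7 with limma's prior taken from all genes.

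**Figure D2:**
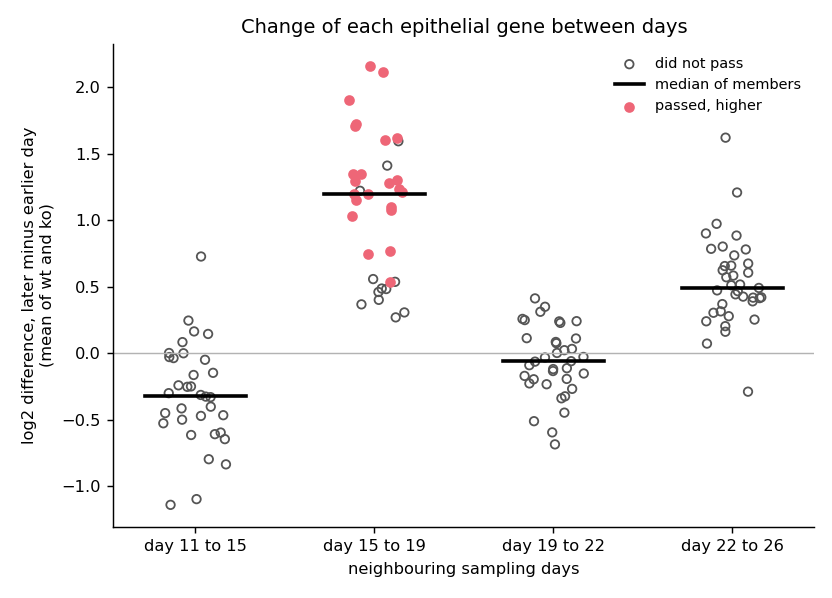
Log2 difference between neighbouring sampling days, mean of wt and ko cultures, with 1 point per epithelial gene and the median of the genes as a line. From day 15 to day 19 the median is 1.20 and 23 genes passed the test (filled); none passed in the other 3 intervals.

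The interval from day 11 to day 15 went the other way for most members. Only 6 of 34 estimates were positive and the median was -0.32, but 0 members passed limma's test (6 at an unadjusted p under 0.05) where 0.381% of all genes passed. The lowest culture array was wt day 15, with no tie, for 24 of the 37 members and for 5.24% of all genes. Dsc2, a desmosomal cadherin of the desmocollin family, and Dsp, the desmosomal linker to keratin, had the largest negative differences, -1.14 and -1.10. From day 19 to day 22 the median was -0.06, with 0 of 36 members called by limma (1, lower, at an unadjusted p under 0.05; 12.9% of all genes passed, 5.13% higher and 7.78% lower). From day 22 to day 26, 36 of 37 estimates were positive with a median of 0.49, and 0 members passed (13 at an unadjusted p under 0.05), as did 0.0% of all genes.

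Over the whole course, 25 of 37 members rose per day and 0 fell, where 36.6% of all genes passed and 18% passed as higher. The median was 0.0896 in log2 per day (all genes, -0.00109), and 22 of the 25 rose at least 2-fold over the 15 days spanned. By role these were 2 of 3 adhesion genes, 3 of 4 keratins, 4 of 4 claudins, 4 of 7 other tight junction genes, 2 of 4 desmosomal genes, 3 of 5 polarity and traffic genes, both Esrp splicing factors, 2 of 4 transcription factors and 3 of 4 proteases and inhibitors. Without the day 11 arrays limma called 0 members and 0 genes in all (30 members at an unadjusted p under 0.05). It called 16 members without the day 26 arrays, 16 without the ko day 26 array alone (chosen after seeing the data), and 8 with a line through the 5 day means.

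Among the adhesion genes, Epcam, a surface glycoprotein of epithelia and pluripotent cells, had the largest change. In wt cultures it read 8.52, 9.13, 10.56, 10.93 and 11.55 on days 11, 15, 19, 22 and 26. In ko cultures it read 8.26, 9.10, 11.48, 10.84 and 11.99. Every array from day 19 on was above every earlier one, and the rise was 0.23 ± 0.03 in log2 per day (SE, limma, 10 arrays, adjusted p = 0.00304), 11.3-fold over the course. Cdh1, chosen for description after its values were seen, read 9.26, 9.09, 10.69, 11.24 and 11.15 in wt and 8.91, 8.61, 11.22, 11.13 and 11.83 in ko cultures. Its arrays also split without overlap between days 11 to 15 and days 19 to 26 (0.19 ± 0.03 per day, adjusted p = 0.0060). Cdh3, a cadherin of basal epithelia, had a change of -0.03 ± 0.02 per day that did not pass (adjusted p = 0.199).

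Krt18, a keratin of simple epithelia, read 8.32, 7.68, 10.18, 10.28 and 9.30 in wt cultures. In ko cultures it read 7.89, 8.82, 9.14, 9.19 and 10.95. The highest wt values were on days 19 and 22, whereas the highest ko value was on day 26 (0.15 ± 0.04 per day, adjusted p = 0.0212). Krt7 and Krt19 rose as well, by 0.14 ± 0.03 and 0.090 ± 0.028 per day. Krt8, the usual partner of Krt18, had a change of 0.056 ± 0.031 (adjusted p = 0.188). Without the ko day 26 array none of the 4 keratins passed (Krt18 adjusted p = 0.0758).

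The claudins form the paired strands of tight junctions, and all 4 listed rose. Cldn7 read 7.48, 6.98, 8.61, 8.98 and 9.47 in wt and 7.21, 7.64, 9.22, 9.07 and 10.19 in ko cultures. Arrays from day 19 on did not overlap earlier ones (0.18 ± 0.02 per day, adjusted p = 0.00347). Cldn4 rose by 0.15 ± 0.03 and Cldn3 by 0.12 ± 0.02 per day. Cldn6, a claudin of embryonic epithelia, was late. It was at the floor on day 11 in both genotypes and read 5.96, 6.07, 6.28 and 7.40 in wt cultures from day 15 on. In ko cultures it read 5.65, 6.08, 6.58 and 8.69, so both genotypes had their largest rise from day 22 to day 26.

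Ocln, the first known tight junction membrane protein, had the largest change per day among the other tight junction genes. It read 6.73, 6.21, 7.59, 7.61 and 7.56 in wt and 6.37, 6.56, 7.58, 7.56 and 8.54 in ko cultures. The wt values were level from day 19 on (0.11 ± 0.02 per day, adjusted p = 0.0068). Lsr, the receptor that marks tricellular junctions, rose by 0.11 ± 0.01, Tjp3, a scaffold protein, by 0.068 ± 0.015 and Cgn, a cytoplasmic plaque protein, by 0.059 ± 0.017. Marveld3 (0.087 ± 0.031, adjusted p = 0.0565), the tricellular Marveld2 (0.019 ± 0.011, adjusted p = 0.202) and the adhesion molecule F11r (0.027 ± 0.019, adjusted p = 0.282) did not pass over the course. From day 15 to day 19 alone, Marveld3 passed as higher (limma, 1.71, adjusted p = 0.0161). Marveld2 was at the floor on all culture arrays except ko days 22 and 26 (5.69 and 6.32).

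Dsg2, a desmosomal cadherin also found in pluripotent cells, read 8.57, 8.76, 10.43, 10.76 and 11.15 in wt cultures. In ko cultures it read 8.22, 8.52, 11.18, 11.33 and 11.42, and arrays from day 19 on did not overlap earlier ones. It rose by 0.22 ± 0.03 per day (adjusted p = 0.00421). Between days 19 to 26 and the days before, the Dsg2 probe set used differed by 2.52. Another Dsg2 set, also above the floor on all 18 arrays, differed by 1.25, and one above it on 13 arrays by 0.80. The plakophilin Pkp3 rose by 0.064 ± 0.020. Dsp (0.033 ± 0.029, adjusted p = 0.40) and Dsc2 (0.011 ± 0.030, adjusted p = 0.799) did not pass over the course. From day 15 to day 19 alone, Dsp passed as higher (limma, 1.07, adjusted p = 0.0393).

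Ap1m2, the epithelial subunit of the clathrin adaptor that sorts cargo to the basolateral membrane, read 8.14, 7.44, 8.59, 8.74 and 8.81 in wt and 7.87, 7.97, 9.14, 8.31 and 9.71 in ko cultures. Its lowest array was wt day 15 and its highest ko day 26 (0.091 ± 0.025 per day, adjusted p = 0.0246). Rab25, a GTPase of apical recycling endosomes, rose by 0.087 ± 0.029, and Llgl2, a basolateral polarity protein, by 0.060 ± 0.010. The apical determinant Crb3 (0.039 ± 0.018, adjusted p = 0.108) and the transcytosis protein Mal2 (0.037 ± 0.033, adjusted p = 0.404) did not pass.

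Esrp1, a splicing factor that sets epithelial isoforms, read 8.80, 8.14, 9.43, 9.89 and 10.25 in wt and 8.41, 8.27, 10.21, 9.98 and 10.97 in ko cultures. No array before day 19 reached the values from day 19 on (0.15 ± 0.03 per day, adjusted p = 0.00616). Its relative Esrp2 rose by 0.082 ± 0.024. Grhl2, a grainyhead factor that activates junction genes, read 7.38, 6.97, 7.84, 8.57 and 8.72 in wt and 6.99, 7.31, 8.49, 8.59 and 9.65 in ko cultures (0.15 ± 0.02 per day, adjusted p = 0.00318). A second Grhl2 probe set above the floor on all 18 arrays differed by -0.12 between days 19 to 26 and the days before, against 1.48 for the set used. Elf3, an Ets factor of epithelia, rose by 0.13 ± 0.02. Ovol1 was above the floor on 3 culture arrays only, and Ovol2, a repressor of mesenchymal genes, on 4. Neither passed over the course. From day 15 to day 19 alone, Ovol2 passed as higher (limma, 0.54, adjusted p = 0.0485), with 2 of those arrays at the floor.

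Spint1, a membrane inhibitor of the protease St14, read 6.91, 6.77, 7.71, 8.03 and 8.37 in wt and 6.52, 6.66, 8.32, 8.17 and 9.40 in ko cultures. The arrays from day 19 on lay above all earlier ones (0.16 ± 0.02 per day, adjusted p = 0.00318). The related inhibitor Spint2 rose by 0.11 ± 0.02 and St14 itself by 0.0965 ± 0.0244. The protease Prss8 did not pass (0.024 ± 0.027, adjusted p = 0.517).

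**Figure D3:**
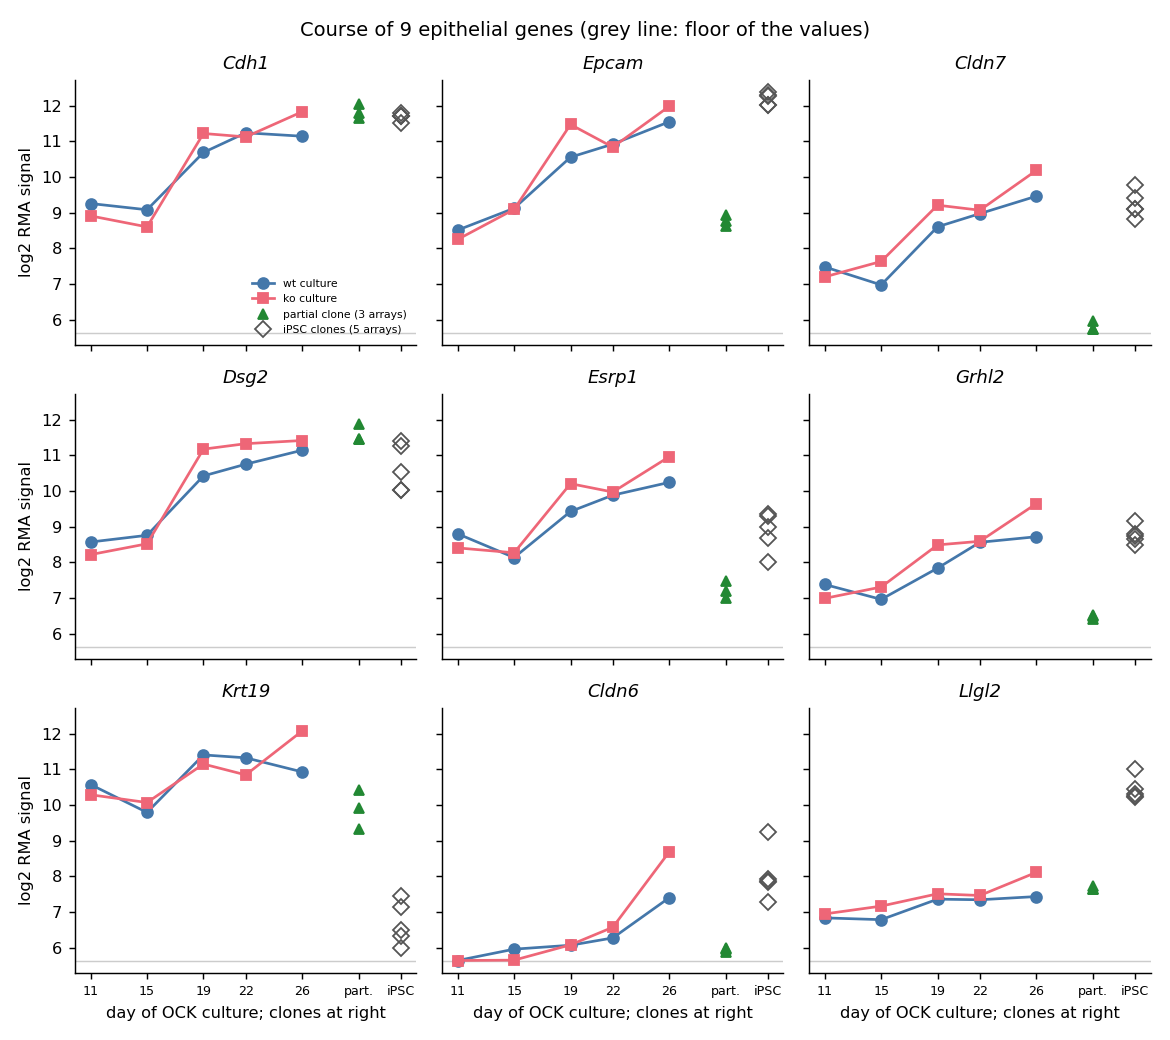
Log2 RMA signal of 9 epithelial genes against the day of OCK culture in wt (circles) and ko (squares), with the 3 partial clone arrays and 5 iPSC arrays at the right and the floor of 5.64 as a grey line. Cdh1, Epcam, Cldn7, Dsg2 and Esrp1 step up between days 15 and 19, Cldn6 rises last, and the partial clone overlaps the iPSC lines for Cdh1 but lies below every culture array for Cldn7, Esrp1 and Grhl2.

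The cultures are bulk samples, in which a change in the share of epithelial cells and a change in RNA per cell cannot be told apart. Markers of other cell types moved over the same days, and their part in the rise of the members was not tested. Of 10 keratinocyte markers, 3 rose from day 15 to day 19 and 0 fell, although over the whole course 4 fell and 0 rose; all 10 were above the floor in both genotypes on some array. Their summed linear signal ranged from 7136 to 23346 in wt and from 4725 to 19549 in ko cultures, highest on day 11 in both. Of 7 fibroblast markers, 3 fell from day 15 to day 19 and 0 rose, with sums of 86904 to 130255 in wt and 69416 to 132639 in ko, and none was at the floor. Of 6 pluripotency markers tested in that interval 0 passed in either direction, while 5 of 8 rose over the course, with sums of 520 to 3894 in wt and 514 to 10686 in ko; Esrrb and Zfp42 were at the floor in all wt cultures. Trophoblast markers summed to 433 to 653 in wt and 434 to 1254 in ko, with Ascl2 at the floor throughout, and 3 of 7 rose over the course. Primitive endoderm markers summed to 4953 to 8019 in wt and 3303 to 8498 in ko, with Gata4, Sox17 and Sox7 at the floor, and 2 of 5 fell. Lama1 was at the floor in all ko cultures. On days 11 to 19 Foxa2 and Lama1 were at the floor in both genotypes, so only Gata6, Dab2 and Pdgfra were above it. From day 15 to day 19 Elf5 alone of the trophoblast markers passed, as higher (limma, 1.14, adjusted p = 0.0175). Dab2 alone of the primitive endoderm markers passed there, as lower (-0.92, adjusted p = 0.032).

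How early a member approached its iPSC level was described for members whose iPSC mean lay at least 1 log2 unit above day 11, without a test. That mean covers OSK and OCK lines, all but 1 of them Tcf3 ko, so the midpoint depends on this mix of lines. Across the lines Cldn6 read 7.30 to 9.23 and Dsg2 10.04 to 11.41. In wt cultures 15 members qualified, and 7 of them (Cdh1, Epcam, Cldn4, Cldn7, Lsr, Dsg2 and Elf3) were from day 19 on past the midpoint between day 11 and iPSC, as were 8.37% of the 2639 genes that qualified. Grhl2 and Spint2 followed on day 22 and Cldn6 on day 26. Tjp3, Llgl2, Ovol2, St14 and Spint1 had not reached it by day 26. In ko cultures 17 qualified: 10 were past the midpoint from day 19 on (Cdh1, Epcam, Cldn4, Cldn7, Ocln, Lsr, Dsg2, Grhl2, Elf3 and Spint2; 15.7% of the 2633 genes that qualified), 5 from day 26 (Cldn6, Tjp3, Ap1m2, St14 and Spint1), and Llgl2 and Ovol2 not by day 26. Each genotype's own day 11 array set who qualified and where the midpoint lay, so these counts do not compare the genotypes: Ocln qualified in ko alone (iPSC minus day 11 of 1.04, against 0.68 in wt), although on day 19 it read 7.59 in wt and 7.58 in ko.

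The second question was whether loss of Tcf3 changed the members in the cultures. It did not pass the test for any of them: limma, with day as a block, called 0 of 37 members (1 at an unadjusted p under 0.05) and 0.0% of all genes. Of the 37 estimates 35 were positive, with a median of 0.19 (all genes, 0.0134). Cldn4 had the largest difference, 0.38 ± 0.21 (adjusted p = 1.0); it read 8.63, 7.70, 9.50, 9.76 and 9.67 in wt and 8.37, 8.06, 9.71, 9.96 and 11.03 in ko. Its ko value was the lower one on day 11 and the higher one on the other days. Llgl2 was the only member higher in ko on all 5 days (0.29 ± 0.10), as were 3.55% of all genes.

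The days differed in how the genotypes compared. On day 26 all 37 members were higher in ko, by a median of 0.82 and a range of 0.15 to 1.65, where 54.5% of all genes were higher. On day 11, by contrast, 29 were lower in ko and 4 higher, with a median of -0.26, where 42.2% of all genes were lower and 50.7% higher. On day 15, 25 were higher and 8 lower (median 0.13; all genes, 54.6% and 40.0%). On day 19, 25 were higher and 10 lower (median 0.23; all genes, 47.7% and 45.6%). On day 22, 15 were higher and 21 lower (median -0.07; all genes, 49.4% and 44.6%). The ko day 26 array was the highest of the 10 culture arrays for 34 of 37 members, as for 8.57% of all genes. Krt18 showed the largest day 26 difference, 10.95 in ko against 9.30 in wt, yet was lower in ko on days 19 and 22. The day 26 difference rests on a single array of each genotype and has no replicate check. On that array the pluripotency markers summed to 10686, against 3894 in wt, and the trophoblast markers to 1254, against 653; the part of either in the difference was not tested.

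**Figure D4:**
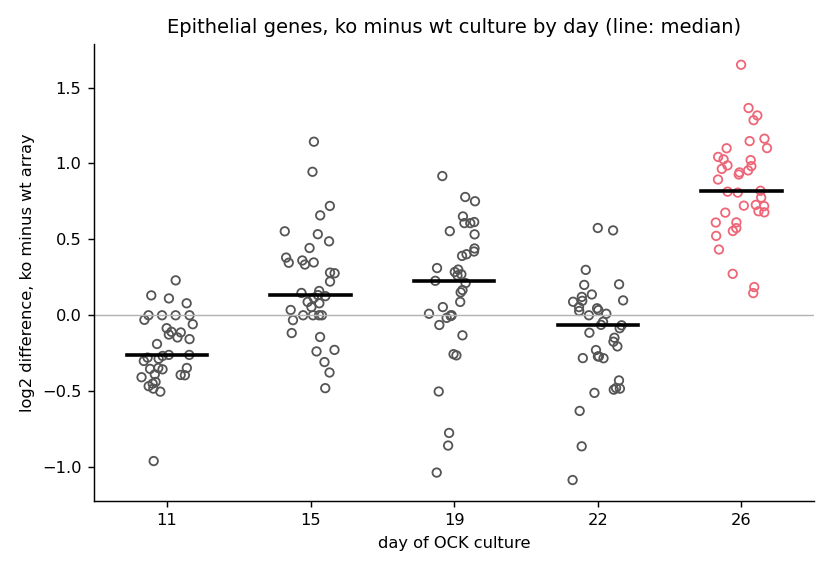
Difference in log2 RMA signal, ko minus wt culture, for each epithelial gene on each sampling day, with the median as a line. All 37 genes are above 0 on day 26 (0.15 to 1.65), whereas the medians of the earlier days lie between -0.26 and 0.23.

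The difference between the ko and wt slopes was positive for 35 of 37 members, with a median of 0.0493 in log2 per day, and for 6762 of the 13428 genes tested, with a median of 0.000175. The ends of the course weigh most in a slope, and they are single ko arrays: day 11, lower than wt for 29 members, and day 26, higher for all 37. Limma called 0 members (1, Spint1, at an unadjusted p under 0.05) and 0.0% of all genes. The protease Prss8 had the largest slope difference, 0.099 ± 0.054. It read 7.10, 6.17, 6.30, 6.50 and 6.49 in wt and 6.60, 5.94, 6.61, 6.23 and 7.80 in ko cultures. Its ko values lay within the wt range or below it until day 26, when the ko array was the highest of the 10.

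The partial clone was compared with the established iPSC lines to ask how far its epithelial genes had come. Cdh1 did not pass the test between them, but most other members did: Cldn7, Epcam and Cldn4 were lower by 10.8-fold, 10.7-fold and 8.04-fold, and Llgl2, Ap1m2, St14, Grhl2 and Cldn6 by 4.22-fold to 6.80-fold. Other members were higher, led by Krt19 (9.19-fold) and Ocln (3.22-fold). In all, 29 of 35 members passed, 20 lower and 9 higher, where 65.8% of all genes passed, 37.9% lower and 27.9% higher. The median was -0.71 (all genes, -0.0548). The clone is Tcf3 wt and made with OCK, and 2 of its 3 arrays had Tcf3 siRNA. All but 1 of the 5 iPSC lines are Tcf3 ko, and the OSK lines had other factors. Reprogramming state thus cannot be told apart here from genotype, siRNA or factor set. The clone is 1 clone on 3 arrays, and its SE comes only from the spread within groups of 2 arrays; with the 3 partial and 5 iPSC arrays as 2 plain groups, which adds the spread between lines and was chosen after seeing the data, 26 passed, 20 lower and 6 higher, without Marveld2, Dsp and Rab25.

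Cdh1 read 12.05 with control siRNA and 11.81 and 11.66 with the Tcf3 siRNAs, against 11.81 in the OSK wt line, 11.73 and 11.72 in the OSK ko clones and 11.70 and 11.51 in the OCK ko clones. The groups overlapped, and the difference of 0.15 ± 0.08 did not pass (adjusted p = 0.152), although after quantile normalization it did, at 0.25 (adjusted p = 0.0245). The control siRNA array alone, at 12.05, lay above every line and 0.44 above the mean of the OCK ko clones. For Epcam the clone read 8.95, 8.64 and 8.78 against 12.39, 12.29, 12.28, 12.02 and 12.03. The groups did not overlap (-3.41 ± 0.06, adjusted p = 7.8e-07). Cdh3 was lower (-0.99 ± 0.08).

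Cldn7, with the largest difference, read 5.97, 5.74 and 5.74 in the clone, close to the floor. The iPSC lines read 9.78 (OSK wt), 9.12 and 9.11 (OSK ko) and 9.41 and 8.82 (OCK ko), a difference of -3.44 ± 0.14 (adjusted p = 6.5e-06). Cldn4 (-3.01 ± 0.10) and Cldn6 (-2.08 ± 0.13) were also lower, while Cldn3 was higher (0.80 ± 0.07), so 3 of 4 claudins were below iPSC. The scaffold Tjp3 read 5.71 in the control and was at the floor in both Tcf3 siRNA arrays, against 8.31, 7.58, 7.80, 7.33 and 6.90 in the lines. Its difference of -1.92 ± 0.12 is held down by the floor. Cgn (-1.34) and Lsr (-0.59) were lower too. Ocln was the opposite, at 9.22, 9.19 and 8.89 in the clone and 6.98 to 7.75 in the lines (1.69 ± 0.15, adjusted p = 1.5e-04), and F11r (0.73) and Marveld2 (0.50) were higher; Marveld3 did not pass (0.12 ± 0.10).

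Krt19, a keratin of simple epithelia, was the member most above iPSC. It read 10.41, 9.91 and 9.33 in the clone and 7.46, 6.50, 6.32, 6.01 and 7.15 in the lines, without overlap (3.20 ± 0.28, adjusted p = 0.000122). Krt8 (0.74 ± 0.31, adjusted p = 0.0770), Krt7 (-0.71 ± 0.36) and Krt18 (-0.06 ± 0.08) did not pass. The direction of Krt18 depended on the reference: against the OCK ko clones alone it was 0.31 (limma, adjusted p = 0.0358). Calls of other members moved with that reference too. Krt8 was 1.12 (adjusted p = 0.0458) and Marveld3 0.41 (adjusted p = 0.0349), so both passed. Rab25, at 0.36, did not pass there (adjusted p = 0.0583). Dsg2 read 11.88, 11.47 and 11.46 in the clone, above the 10.55, 10.04 and 10.04 of the OSK lines and the 11.41 and 11.27 of the OCK ko clones (0.94 ± 0.07, adjusted p = 4.9e-05). Dsp was higher by 0.64 ± 0.10, but by 0.02 against the OCK ko clones alone (adjusted p = 0.924), and Pkp3 was lower (-0.64 ± 0.08). Dsc2 did not pass (-0.03 ± 0.31).

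Llgl2 read 7.74, 7.65 and 7.66 in the clone and 11.02, 10.24, 10.25, 10.44 and 10.30 in the lines (-2.77 ± 0.07, adjusted p = 1.3e-06). All 5 lines were thus more than 2 log2 units above the clone. Ap1m2 (-2.65 ± 0.10) and Crb3 (-1.03 ± 0.08) were lower and Rab25 higher (0.36 ± 0.11), while Mal2 was at the floor on all 8 arrays and not tested. Esrp1 read 7.48, 7.20 and 7.0 against 9.37, 8.98, 9.31, 8.01 and 8.68 (-1.64 ± 0.17, adjusted p = 2.7e-04). Its relative Esrp2 went the other way (0.40 ± 0.07). Of the transcription factors, Grhl2 read 6.53, 6.41 and 6.51 against 9.16, 8.65, 8.73, 8.48 and 8.79 (-2.28 ± 0.09, adjusted p = 6.1e-06), though its second probe set differed by 0.12. Elf3 (-1.53 ± 0.20) and Ovol2 (-1.27 ± 0.08) were lower, and Ovol1 was at the floor on all 8 arrays.

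All 4 proteases and inhibitors were lower in the clone. St14, a membrane serine protease also called matriptase, read 7.69, 7.45 and 7.30 against 9.92, 9.77, 9.78, 10.61 and 9.82 (-2.50 ± 0.18, adjusted p = 5.6e-05). Prss8 was at the floor on the 3 partial arrays and 6.65 to 8.07 in the lines, so iPSC were at least 2.81-fold higher. Spint2 (-0.97 ± 0.07) and Spint1 (-0.40 ± 0.08) differed least.

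**Figure D5:**
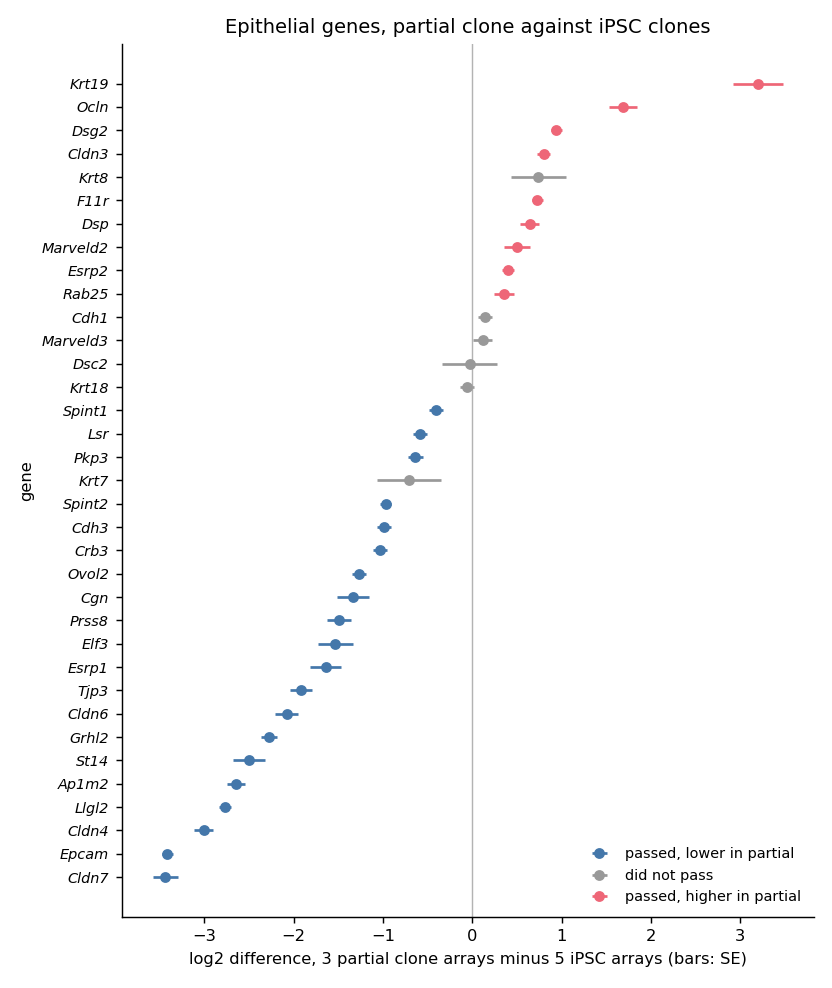
Log2 difference between the 3 partial clone arrays and the 5 iPSC arrays for the 35 epithelial genes tested, with SE bars from limma and colour showing the test's call. Cldn7, Epcam and Cldn4 lie at -3.44 to -3.01, Cdh1 at 0.15 and Krt19 at 3.20.

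In the partial clone 7 of 7 fibroblast markers and 5 of 9 keratinocyte markers tested were higher than in iPSC and 0 were lower, and all 8 pluripotency markers were lower. Fibroblast markers summed to 9931 to 13084 in the clone and 860 to 3295 in the lines, with no marker at the floor throughout. Keratinocyte markers summed to 9062 to 11990 and 763 to 883, with Krt1, Ivl, Sprr1a and Trp63 at the floor in iPSC and Ivl in the clone. Of trophoblast markers, 2 of 6 were higher and 2 lower, with sums of 851 to 1014 and 1131 to 1692 and Ascl2 and Tpbpa at the floor in both; of primitive endoderm markers, 1 of 8 was higher and 1 lower, with sums of 1859 to 2680 and 878 to 1642. The part of these in the members' differences was not tested.

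The cultures bracket the clone differently from gene to gene. All 3 partial arrays were below all 10 culture arrays for 12 of 37 members (Cdh3, Krt7, Cldn4, Cldn7, Cgn, Dsc2, Rab25, Mal2, Ap1m2, Esrp1, Grhl2 and Prss8), where 17.3% of all genes were. They were above all cultures for 5 (Ocln, Marveld2, F11r, Dsg2 and Spint1), where 17.4% were, and overlapped for 20. The iPSC lines lay above all cultures for Epcam, Llgl2, Ovol2 and Spint1 (4 members; 25.7% of all genes) and below them for Krt8, Krt19, Cldn3, Rab25 and Mal2 (5 members; 19.7%), and 28 overlapped. Mal2, at the floor in every iPSC and partial array, was at least 2.64-fold higher in the cultures by their mean. Llgl2 was thus low in cultures (6.79 to 8.12) and clone alike and high in the lines. These counts describe arrays that do not overlap and carry no test.

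The iPSC lines made with OSK were compared by Tcf3 genotype. Of the members Krt18 alone passed, as lower in ko: it read 8.17 and 8.0 in the 2 ko clones against 9.25 in the single wt line, which is taken to vary like the groups of 2. The difference was -1.17 ± 0.13 (limma, adjusted p = 0.0292), 1 of 35 members where 0.687% of all genes passed, 0.3% higher and 0.387% lower. It missed the threshold without either ko clone (adjusted p = 0.163 and 0.216), with the 5 iPSC arrays alone in the fit (0.152) and with limma's prior from all genes (0.0790). Of the estimates 5 of 35 were positive and the median was -0.27 (all genes, 0.0114), from -1.34 for Cldn6 (adjusted p = 0.0682) to 0.76 for Ocln. With 1 wt line, genotype and line cannot be told apart.

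Between the ko clones made with OCK and with OSK, 4 of 35 members passed, 2 higher and 2 lower, where 10.7% of all genes did, 4.87% higher and 5.8% lower. Among desmosomal genes, Dsg2 and Dsp were higher with OCK. Dsg2 read 11.41 and 11.27 against 10.04 and 10.04 (1.30 ± 0.09, adjusted p = 0.00367), and Dsp 10.20 and 9.91 against 8.86 and 8.62 (1.32 ± 0.14, adjusted p = 0.00729). Ap1m2 was lower, at 8.60 and 8.25 against 9.29 and 9.27 (-0.86 ± 0.14, adjusted p = 0.0177), as was Spint2, at 11.05 and 11.02 against 11.51 and 11.54 (-0.49 ± 0.09, adjusted p = 0.0258). In each case the 2 pairs of clones did not overlap. Without either OSK ko clone 0 members passed (9 and 6 at an unadjusted p under 0.05), and without OCK ko clone 1 or clone 2, 15 and 13 did.

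Tcf3 siRNA was compared with control siRNA in the partial clone, and no member passed. Limma called 0 of 34 members (9 at an unadjusted p under 0.05) and 0.111% of all genes. Of the estimates 6 were positive, and the median was -0.23 (all genes, -0.00224). Krt8 had the largest difference, with 10.28 in the control and 9.17 and 8.87 with siRNAs A and B (-1.26 ± 0.52, adjusted p = 0.395). Krt18, at 8.68 against 7.99 and 7.82, had the smallest adjusted p (-0.78 ± 0.13, adjusted p = 0.114). Both siRNAs lay below the single control array for each of these keratins. Cldn3 (0.67), Lsr (0.37) and Cdh3 (0.32) had the largest differences in the other direction. In a test added after seeing the data, the siRNA and OSK ko effects differed for 0 of the members and 0 of 13403 genes (5 members at an unadjusted p under 0.05).

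Other genes of junctions and of the epithelial state, in lists that are not members, are given next, beside 18% of all genes that rose per day and 18.7% that fell. Of 14 other epithelial genes 8 rose per day and 0 fell, led by Klf5, a Krüppel-like factor of epithelia and pluripotent cells (0.16 ± 0.03), Tmem30b (0.15 ± 0.02) and Ehf, an epithelial Ets factor (0.15 ± 0.03). Of 12 other junction genes tested 5 rose and 0 fell, with Cldn5 at 0.16 ± 0.03, the plakophilin Pkp4 at 0.13 ± 0.02 and Pkp2 at 0.080 ± 0.022. Only 2 of 9 cadherin plaque and nectin genes rose (Nectin4, 0.14 ± 0.03, and Afdn, 0.058 ± 0.013) and 0 fell, and the catenins Ctnnb1 (0.002 ± 0.007) and Ctnna1 (0.009 ± 0.009) had values near 0. The other catenin listed, Ctnnd1, did not pass per day (-0.023 ± 0.029) but moved within the course. It changed by -1.12 from day 15 to day 19 (limma, adjusted p = 0.0082) and by 0.92 from day 19 to day 22 (adjusted p = 0.018). The polarity complexes were mixed, with 4 of 12 rising (Prkcz 0.11 ± 0.02, Pard6b 0.10 ± 0.03 and Scrib 0.065 ± 0.013 among them) and 2 falling (Pard6g -0.056 ± 0.017 and Dlg1 -0.031 ± 0.009). Of 11 regulators of the reverse transition and mesenchymal adhesion genes, 7 fell and 0 rose. Twist2 fell by 0.12 ± 0.02, Twist1 by 0.12 ± 0.02 and Prrx1 by 0.11 ± 0.02 per day. Snai1 (-0.077 ± 0.035) and Zeb2 (-0.014 ± 0.028) did not pass per day. From day 15 to day 19 Snai1 (-1.56), Zeb2 (-1.25), Zeb1 (-0.89) and Snai2 (-0.56) all passed as lower, as did 13.4% of all genes. Their part in the rise of the members was not tested.

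In the partial clone the same lists are given beside the shares over all genes, 27.9% higher and 37.9% lower than iPSC. Of the 9 mesenchymal genes tested 4 were higher than in iPSC and 0 lower: Cdh2, the mesenchymal and neural cadherin (2.33 ± 0.26), Cdh11 (1.74 ± 0.40), Vim (1.36 ± 0.35) and Zeb1, a repressor of Cdh1 (0.96 ± 0.07). Of 12 other epithelial genes 6 were higher, led by Ehf, at the floor on all iPSC arrays (5.31 ± 0.08, a value that counts iPSC at the floor), and 6 lower, led by Grhl3 (-2.17 ± 0.19). Of 10 other junction genes 6 were higher, with Pkp1 at 3.31 ± 0.16 and the hemidesmosomal integrin Itgb4 at 2.22 ± 0.11, and 2 lower. Of 12 polarity genes 4 were higher and 6 lower, from Patj at 1.56 ± 0.11 to Pard6b at -1.64 ± 0.07. Of 8 plaque and nectin genes 2 were higher (Nectin3, 1.39 ± 0.06, and Vcl, 0.80 ± 0.06) and 3 lower (Nectin2, -1.47 ± 0.11, among them). The shares of the polarity and of the plaque and nectin genes are near those over all genes. The clone thus read higher than iPSC for Cdh2, Vim and Zeb1, while Cdh1, over all partial arrays together, did not pass.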

How the data were processed

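The data were 18 Affymetrix mouse arrays, 1 per sample. The authors deposited log2 values per probe set made with RMA, per the submitters' processing notes; the sources used here give no version or settings. On each array 44.9% to 46.6% of values equalled the lowest, 5.64 (the log2 of 50), so a floor had been set, as the values show. Of 40508 probe sets, 31076 had 1 gene symbol in the platform annotation, 636 several and 8796 none; Entrez identifiers of 30878 were found in RefSeq (GRCm38.p6) and 0 symbols changed.

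Groups came from the sample labels. A gene was read from its probe set of highest overall mean. Tests used limma 3.58.1 in R 4.3.3 with Benjamini-Hochberg adjustment over all genes tested and a threshold of 0.05. Day steps and the genotype effect came from a fit of the 10 culture arrays with genotype and day, slopes from a fit of genotype by day, and clone comparisons from 8 arrays in 5 groups. The variance prior came from genes never at the floor in a fit. A gene with a floored value was given no less than that prior variance, and one floored throughout a comparison was not tested. The OSK wt line and the control siRNA array stand alone, and the clone fit assumes for them the spread of the groups of 2. The code was tested on simulated data.

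Per-array values are given for the member of each role with the largest change per day, the one with the largest difference between partial clone and iPSC, and members called (or with the largest difference where none was) in the other comparisons. Up to 3 called genes stand for each other list, and the catenins and the Snai and Zeb genes are given besides. The members, lists and tests were chosen with earlier results of these data known, and 1 test and 2 alternatives were added after seeing them. Alternatives were other normalizations, priors, probe set rules and floors, and leaving out days or arrays. The number of arrays limits the precision.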

Additional observations from a re-analysis of the deposited data

How the results depend on the processing

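Counts of members called are given here where they moved by more than 1.5 times. The change per day (25) became 8 with a line through the day means and ranged from 0 to 22 when days or the ko day 26 array were left out, lowest without day 11 (0) and 16 without day 26 or without the ko day 26 array. The step from day 15 to day 19 (23) became 7 with limma's prior from all genes and ranged from 15 to 26, lowest without day 11. The step from day 19 to day 22 (0) ranged from 0 to 1, with Ovol2 lower without day 26. For OSK ko against wt (1) the count was 0 with limma's prior from all genes and with only the 5 iPSC arrays, 2 after quantile normalization and with the mean of probe sets, and 0 without either ko clone. For OCK against OSK ko clones (4) it ranged from 0 to 15 without single clones. With the clone number as a replicate block it was 2 (142 genes called), without Ap1m2 (adjusted p = 0.0789) and Spint2 (0.146); the numbers only name clones and do not pair them. The partial clone against iPSC (29) ranged from 27 to 32 without single arrays. Signs turned for Krt18 in the partial clone (0.83 with the control array against the OCK ko clones, 0.31 against the OCK ko clones only), for Dsc2 there (0.37 without OCK ko clone 1, but -0.22 without OSK ko clone 2) and for Cldn7 between OCK and OSK (0.30 without OCK ko clone 2, but -0.30 without OCK ko clone 1). The cause was not tested. For 0 of the members did the genotype effect, the slope difference or the siRNA effect pass under any alternative run. Quantile normalization and median centring moved array medians by at most 0.0969 and 0.0806. Levels under the floor cannot be ordered, and with 1 array per genotype and day a single array can carry a difference.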
